A study of Mus musculus with 6 samples.

Results

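The 9 genes described here encode junction proteins of the blood-testis barrier: the claudins Cldn3 and Cldn11, the MARVEL-domain proteins Ocln and Marveld2, the junctional adhesion molecules F11r and Jam2, the scaffold Tjp1, the connexin Gja1 and the cadherin Cdh2. They were taken by symbol from a table of 54532 mouse genes, and all 9 were found and tested. Of the 9, Gja1 rose in Ppp6r3 cKO testis, by 13.9% of its mean, none fell, and 8 did not pass the test, so that 11.1% were called where 15.5% of all genes tested were. The call of Gja1 was lost in 5 of 17 alternatives, which include leaving out any 1 of the wild-type libraries.

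The blood-testis barrier is a belt of junctions between neighbouring Sertoli cells, the somatic cells that nurse the germ line inside the seminiferous tubules. Claudins and occludin form its tight junction strands, adhesion molecules and cadherins hold the membranes together, connexins form channels between cells, and scaffolds tie all of these to actin. The barrier is assembled during the first wave of spermatogenesis, and closes above the spermatogonia so that meiotic cells mature behind it. The levels below are of RNA on postnatal day 9 and do not show whether the barrier had formed by then.

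Poly(A) RNA was sequenced from whole testes of mice on postnatal day 9, in 3 samples labelled wild type (WT) and 3 labelled Ppp6r3 cKO. Ppp6r3 codes for a subunit that directs protein phosphatase 6 to its substrates, and cKO is the usual short form of conditional knockout. The sources used here name neither the Cre line, and so the cells in which the gene was deleted, nor the deleted exons, the strain or any treatment. No label ties a sample to its own animal, and the p-values below may therefore reflect technical spread alone.

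Levels are given in FPKM, here a gene's fragments divided by its exon length and by a median-ratio scale of the library, and 16187812 to 16960175 fragments per library were recovered from the deposited table over all genes. Ppp6r3 itself was at 20.8, 21.3 and 21.0 FPKM in WT and 15.8, 15.3 and 14.9 FPKM in Ppp6r3 cKO, 0.73 of the WT mean (limma adjusted p = 0.000698). Of 17 Sertoli cell markers, none at 0 in every library, 4 rose (Amh, Kitl, Inhbb and Sox8), 4 fell (Cst9, Rhox5, Gata1 and Shbg) and 9 did not pass; 2 rose without WT replicate 1 or 2, and the call of Rhox5 was lost in 8 of 17 alternatives. This is 47.1% called, against 15.5% of all genes tested. The summed level of these markers was 3587 to 3659 FPKM in WT and 3512 to 3631 FPKM in Ppp6r3 cKO. All 12 meiotic germ cell markers fell, Meiob and Spo11 the most, and their summed level was 429.5 to 434.2 FPKM in WT and 211.5 to 219.0 FPKM in Ppp6r3 cKO. Of 8 macrophage markers 4 rose (Lyz2 and Adgre1 the most) and none fell, of 11 markers of undifferentiated spermatogonia 3 rose (Zbtb16 and Ret among them) and none fell, of 8 Leydig cell markers 2 rose (Dlk1 the most) and 1 fell (Ren1), and of 8 peritubular myoid markers none rose and 2 fell (Acta2 and Cnn1). Shares called were 50.0% of the macrophage, 27.3% of the spermatogonial, 37.5% of the Leydig and 25.0% of the myoid markers, against 15.5% of all genes tested. Without any 1 of the 6 libraries 1 myoid marker fell, and the call of Cnn1 was lost in 11 of 17 alternatives. In whole tissue, fewer cells of a type and less RNA per cell cannot be told apart.

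The members spanned a wide range of levels, and FPKM, a level per length, allows them to be ranked. In WT the order was Cldn11, F11r, Gja1, Jam2, Ocln, Tjp1, Cdh2, Marveld2 and Cldn3, from a mean of 261.8 FPKM down to 1.95 FPKM. Jam2 and Ocln overlapped in range, with Jam2 at 18.9 to 20.2 FPKM and Ocln at 18.2 to 19.4 FPKM, so their order is not resolved. The ranges of every other pair of neighbours in this order stood apart, the closest being Ocln at no less than 18.2 FPKM over Tjp1 at no more than 17.5 FPKM. In Ppp6r3 cKO the same order held except that Ocln and Jam2 changed places, again with overlapping ranges. The closest ranges that stood apart there were Jam2 at no less than 18.85 FPKM over Tjp1 at no more than 18.78 FPKM. These ranges hold the spread between libraries alone. The order also rests on the exon length used for each gene, which was not varied.

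**Figure D1:**
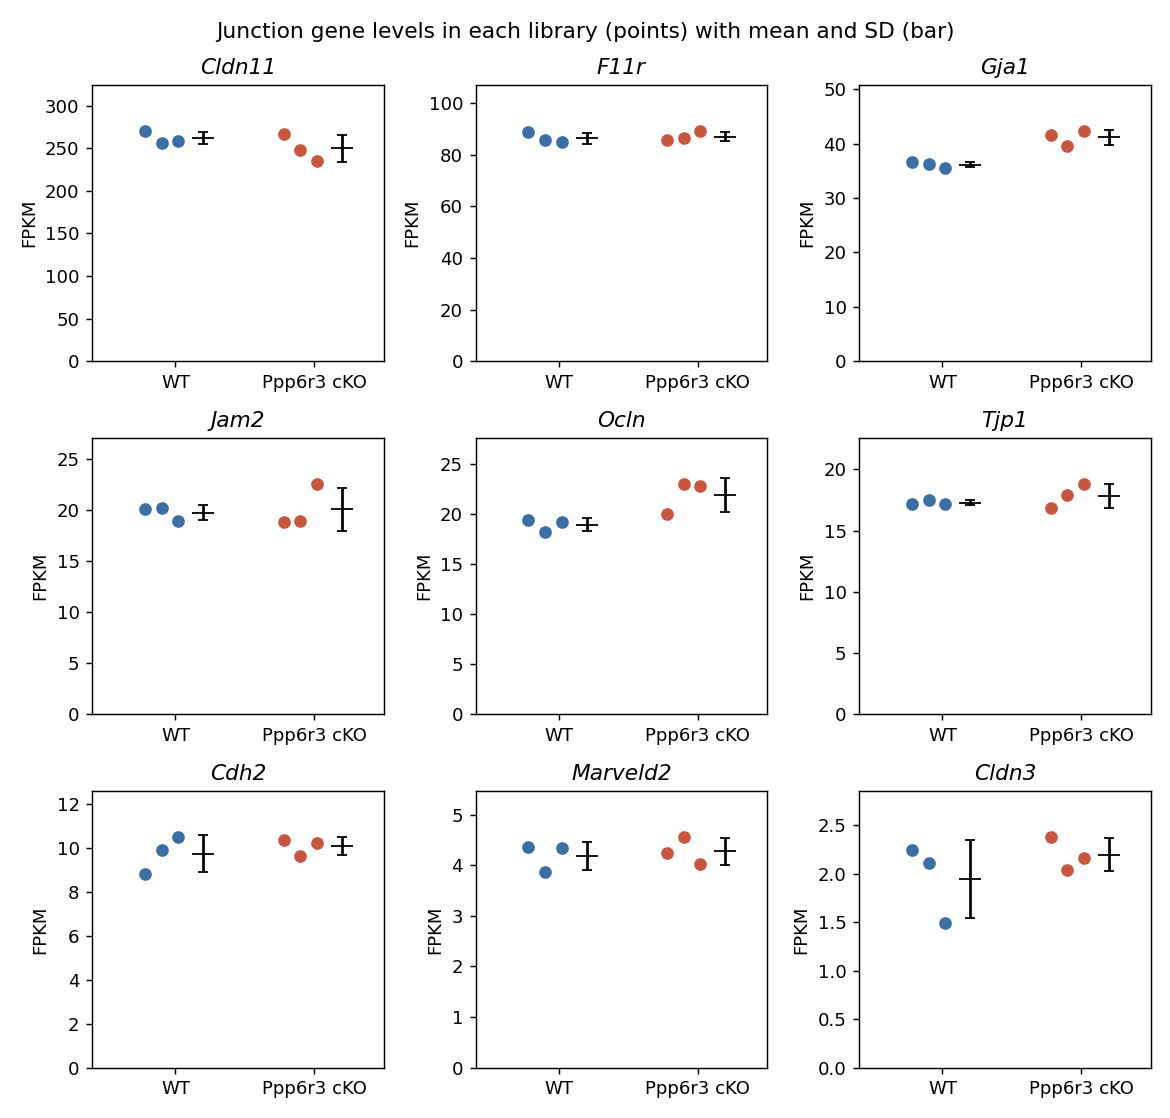
FPKM of each of the 9 junction genes (vertical axes, starting at 0) in the 3 WT and 3 Ppp6r3 cKO libraries (points), with mean and SD (bars). Only in the Gja1 and Ocln panels do all Ppp6r3 cKO points lie above all WT points.

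Over all 17672 genes tested, limma called 15.5% changed at an adjusted p under 0.05, with 7.65% that rose and 7.83% that fell. Of the 9 junction genes 1 was called (11.1%). The log2 fold change was positive for 8 and negative for 1, where 50.5% of all genes tested were positive. The sign of Cldn11, Cdh2, F11r, Jam2 and Marveld2 changed in at least 1 alternative. The median log2 fold change was 0.05 for the members and 0.003 for all genes tested. For 6 of the 9 the absolute log2 fold change lay under 0.14, the median over all genes tested. WT and Ppp6r3 cKO libraries did not overlap for 2 of the 9 members, Gja1 and Ocln, against 36.9% of all genes tested.

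**Figure D2:**
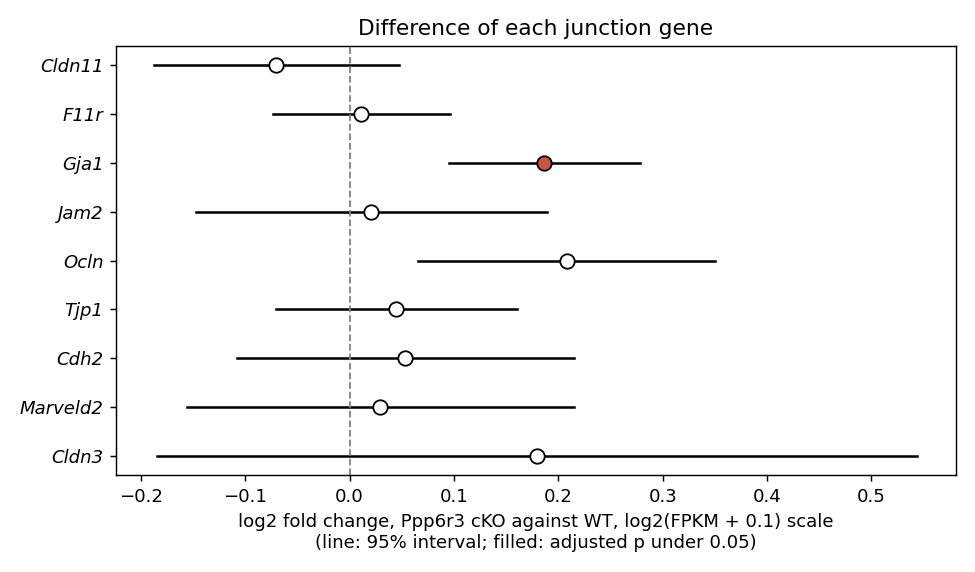
Log2 fold change of each member, Ppp6r3 cKO against WT, on the log2(FPKM + 0.1) scale (horizontal axis), with its 95% interval from limma (lines). The filled point is Gja1 at 0.19, and the intervals of Gja1 and Ocln lie above 0 while the other 7 span it.

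The claudins seal the tight junction strands. Cldn11 (ENSMUSG00000037625, mm10 chromosome 3, 31149920 to 31164324, plus strand), the claudin without which Sertoli cells form no strands, was the most abundant member. Its levels were 270.1, 257 and 259 FPKM in WT and 267, 248 and 235 FPKM in Ppp6r3 cKO. One Ppp6r3 cKO library lay inside the WT range and the others below it. The log2 fold change of Cldn11 was -0.07 (SE 0.0509, limma adjusted p = 0.394), with a 95% interval of -12.1% to 3.31% in level. Its levels rest on 7083 to 8388 fragments per library. Cldn3 (ENSMUSG00000070473, chromosome 5, 134986214 to 134987472), a claudin known to come up in Sertoli cells at newly formed junctions, was the least abundant member. It stood at 2.25, 2.11 and 1.49 FPKM in WT and 2.37, 2.04 and 2.17 FPKM in Ppp6r3 cKO, which rest on only 30 to 49 fragments per library. The groups overlapped, and the log2 fold change of Cldn3 was 0.18 (SE 0.158, adjusted p = 0.486), or 0.008 without WT replicate 3, the lowest library. Its interval, -12.0% to 45.8%, is the widest of the 9.

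Occludin and tricellulin share the MARVEL domain. Ocln (ENSMUSG00000021638, chromosome 13, 100496507 to 100552718, minus strand), which lines the strands between a pair of cells, was measured at 19.4, 18.2 and 19.3 FPKM in WT and 20.03, 23.0 and 22.8 FPKM in Ppp6r3 cKO. Ppp6r3 cKO libraries were all higher, replicate 1 by the least. Ocln differed by 0.21 on average in log2 units (SE 0.0618), with an interval of 4.70% to 27.5% in level, and limma gave an unadjusted p of 0.00948 and an adjusted p of 0.057, just short of the threshold. It was called without Ppp6r3 cKO replicate 1 (0.27, adjusted p = 0.0121), after a GC and length correction (0.25, adjusted p = 0.0106) and with voom (0.21, adjusted p = 0.00581); over its 17 alternatives the adjusted p ran from 0.00581 to 0.169. Ppp6r3 cKO replicate 1 stood apart in GC content: over 10 bins of genes by GC content its median log2 deviation went from -0.112 in the lowest to 0.126 in the highest, and the transcripts of Ocln have 44.1% GC. In that library Jam2, with 45.1% GC, and Tjp1, with 47.1% GC, were also at their lowest among the Ppp6r3 cKO libraries. There Gja1, with 45.0% GC, was in the middle of the Ppp6r3 cKO libraries and Cdh2, with 45.1% GC, the highest of them. The part of GC content in the value of Ocln was not tested beyond the correction. Over all genes, voom called 2105 higher and 1965 lower, and the GC and length correction 1783 and 1573. As reported, 1352 rose and 1384 fell, so both settings called more genes in general. Without Ppp6r3 cKO replicate 1 fewer were called, with 1121 higher and 1277 lower.

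Marveld2 (ENSMUSG00000021636, chromosome 13, 100595957 to 100616971), which encodes tricellulin and sits where the corners of several cells meet, lies on the same strand as Ocln, 43238 bases away with 2 annotated genes between them. It was at 4.36, 3.87 and 4.33 FPKM in WT and 4.24, 4.55 and 4.03 FPKM in Ppp6r3 cKO. The groups overlapped throughout, with a log2 fold change of 0.03 for Marveld2 (adjusted p = 0.841, interval -10.3% to 16.1%). Ocln made up 81.75% ± 0.640 of the summed FPKM of Ocln, Marveld2 and Marveld3 in WT and 83.5% ± 1.15 in Ppp6r3 cKO (SD, n = 3 each).

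The junctional adhesion molecules are immunoglobulin-like proteins beside the strands. F11r (ENSMUSG00000038235, chromosome 1, 171437535 to 171464603, plus strand), which encodes JAM-A, was at 88.6, 85.6 and 84.7 FPKM in WT and 85.5, 86.3 and 89.1 FPKM in Ppp6r3 cKO. The groups covered nearly the same range, and F11r had the narrowest interval of the 9, -4.92% to 6.86% (log2 fold change 0.01, SE 0.0367, adjusted p = 0.863; its sign turned with the scaling, to -0.001 with total-fragment scaling). Jam2 (ENSMUSG00000053062, chromosome 16, 84774123 to 84825928, plus strand), which encodes JAM-B, was at 20.2, 20.2 and 18.9 FPKM in WT and 18.9, 19.0 and 22.6 FPKM in Ppp6r3 cKO. The last library alone lay above the WT range of Jam2, and the log2 fold change of 0.02 (adjusted p = 0.876, interval -9.71% to 14.0%) became -0.06 without it. With Jam3, a further gene of this family at 35.3 FPKM in WT and 33.8 FPKM in Ppp6r3 cKO, the order F11r, Jam3, Jam2 held in every library. F11r took 61.0% ± 0.736 of their sum in WT and 61.7% ± 0.421 in Ppp6r3 cKO (SD, n = 3 each).

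Tjp1 (ENSMUSG00000030516, chromosome 7, 65296165 to 65527781, minus strand) encodes ZO-1, the scaffold that binds claudins, occludin and JAMs and links them to actin. Its levels were 17.1, 17.5 and 17.2 FPKM in WT and 16.8, 17.9 and 18.8 FPKM in Ppp6r3 cKO. The WT libraries lay close together and the Ppp6r3 cKO libraries lay on both sides of them, with a log2 fold change of 0.05 for Tjp1 (SE 0.0501, adjusted p = 0.587, interval -4.73% to 11.8%).

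Gja1 (ENSMUSG00000050953, chromosome 10, 56377330 to 56402513, plus strand) encodes the main connexin of Sertoli cells, whose gap junctions couple them to each other and to germ cells. Its levels were 36.6, 36.2 and 35.6 FPKM in WT and 41.5, 39.6 and 42.3 FPKM in Ppp6r3 cKO. All Ppp6r3 cKO libraries lay above all WT libraries, and the gap between the groups was wider than the range within either. Means were 36.1 ± 0.499 and 41.1 ± 1.39 FPKM (SD, n = 3 each). Gja1 rose, with a log2 fold change of 0.19 (SE 0.0399) and an adjusted p of 0.0187 from limma, an interval of 6.78% to 21.2% in level, on 5830 to 7003 fragments per library. The size hardly moved between alternatives (0.17 to 0.21), but the call was lost without WT replicate 1 (adjusted p = 0.0514), WT replicate 2 (0.0679), WT replicate 3 (0.0743) or Ppp6r3 cKO replicate 3 (0.0578), and with no variance trend (0.0688). Among the 184 tested genes of the other lists, Cav1, which encodes the caveolar coat protein caveolin, had the profile most like that of Gja1 over the 6 libraries (root mean square difference of mean-centred log2 values 0.0278). Cav1 went from 27.75 to 30.6 FPKM (log2 fold change 0.14), which did not pass (adjusted p = 0.0811). In whole testis, Sertoli cells are not the only possible source of Gja1 RNA, and the cells in which it rose were not resolved.

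Promoter windows show what letters lie in front of the gene that rose (Gja1), of Ocln, whose groups also stood apart, and of F11r, whose level differed least in log2 terms. They are the 250 bases before the RefSeq start (GRCm38.p6), on the strand of the gene. For 3 genes that start differs from the GENCODE one given here. The Gja1 window ends at 56377299, short of 56377330, and the F11r window at 171437560, past 171437535. The Tjp1 window (65371245 to 65371494) lies inside the gene, which begins at 65527781 on the minus strand. Distances below are from the RefSeq start. RefSeq windows were matched for 7 of the 9 members, all but Cdh2 and Jam2. Capitals mark the AP-1 motif TGANTCA, the GC box GGGCGG and the TATA box TATAAA, read on both strands.
Gja1, chr10:56377050-56377299, plus strand: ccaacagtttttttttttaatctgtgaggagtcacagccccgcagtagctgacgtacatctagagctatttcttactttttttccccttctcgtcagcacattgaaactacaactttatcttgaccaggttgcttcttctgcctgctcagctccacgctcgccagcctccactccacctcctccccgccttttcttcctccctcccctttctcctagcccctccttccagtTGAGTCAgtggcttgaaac
Ocln, chr13:100552719-100552968, minus strand: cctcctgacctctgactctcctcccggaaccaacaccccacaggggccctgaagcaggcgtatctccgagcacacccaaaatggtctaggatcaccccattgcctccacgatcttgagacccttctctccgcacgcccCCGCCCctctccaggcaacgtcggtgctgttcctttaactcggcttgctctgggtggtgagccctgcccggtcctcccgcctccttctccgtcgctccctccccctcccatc
F11r, chr1:171437311-171437560, plus strand: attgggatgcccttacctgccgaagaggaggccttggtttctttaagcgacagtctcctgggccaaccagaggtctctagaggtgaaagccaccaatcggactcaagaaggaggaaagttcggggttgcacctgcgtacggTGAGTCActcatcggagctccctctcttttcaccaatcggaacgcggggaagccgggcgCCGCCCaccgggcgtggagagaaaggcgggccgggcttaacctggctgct
The window of Gja1 held an AP-1 match that begins 19 bases before the start, and no GC box or TATA box. F11r also held an AP-1 match, 109 bases before its start, and a GC box at 50 bases. The window of Ocln held a GC box at 112 bases and no AP-1 match. AP-1 matches occur in 6.75% of the 32851 windows of this length, GC boxes in 32.7% and TATA boxes in 12.4%. Also searched were the E-box CANNTG (66.2% of windows), the GATA motif AGATAA (9.99%) and the SOX motif ACAAAG (16.5%). Gja1 had an E-box match at 23 bases, which overlaps the AP-1 match, and a GATA match at 135 bases. F11r had an E-box match at 122 bases, and the SOX motif was in none of the 7 windows. A match is a run of letters and does not show that a factor binds there.

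Cdh2 (ENSMUSG00000024304, chromosome 18, 16588877 to 16809246, minus strand) encodes N-cadherin, which joins Sertoli cells at the basal ectoplasmic specialization, the actin-rich adherens junction of this barrier. Its levels were 8.82, 9.91 and 10.5 FPKM in WT and 10.4, 9.64 and 10.2 FPKM in Ppp6r3 cKO. The Ppp6r3 cKO range lay inside the WT range, with a log2 fold change of 0.05 for Cdh2 (SE 0.0703, adjusted p = 0.655, interval -7.22% to 16.0%). Without WT replicate 1, the lowest library, the log2 fold change of Cdh2 was -0.02.

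Shares of the summed FPKM of their family were set out for members of 5 families. Gja1 took 55.75% ± 0.462 of the summed FPKM of 20 connexin genes in WT and 59.5% ± 0.744 in Ppp6r3 cKO (SD, n = 3 each). Cldn11 took 87.5% ± 0.892 of that of 21 claudin genes in WT and 84.2% ± 0.940 in Ppp6r3 cKO, a difference of -3.36 percentage points. Cldn5, a further claudin, took 3.85% ± 0.503 of the same sum in WT and 6.905% ± 0.573 in Ppp6r3 cKO. The cells of the testis that its level came from were not resolved. Cdh2 took 49.8% ± 3.43 of the sum of the 6 cadherins listed in WT and 43.95% ± 1.14 in Ppp6r3 cKO. The level of Cdh2 itself was no lower (9.735 and 10.08 FPKM, overlapping), while the summed level rests also on Cdh3 (4.65 and 6.17 FPKM) and Cdh11 (3.72 and 4.73 FPKM), which rose. Marveld2 took 18.03% ± 0.444 of the MARVEL sum in WT and 16.3% ± 1.26 in Ppp6r3 cKO, with overlapping levels of its own. For each of these shares the groups did not overlap (exact permutation test, 2-sided, p = 0.1, the smallest that 3 against 3 libraries allow). In all 22 shares were computed over the 5 families, and 10 of them did not overlap, where 36.9% of all genes tested did not overlap in FPKM. Shares within a family are tied to each other: Ocln was 1.74 percentage points higher and Marveld2 1.74 lower. Adjusted over the 5 families, the exact permutation p was 0.167 for Gja1, Cldn11 and Cdh2, 0.25 for Ocln and 0.3 for F11r. The shares of F11r and Ocln in their families overlapped between the groups (exact p = 0.3 and 0.2).

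**Figure D3:**
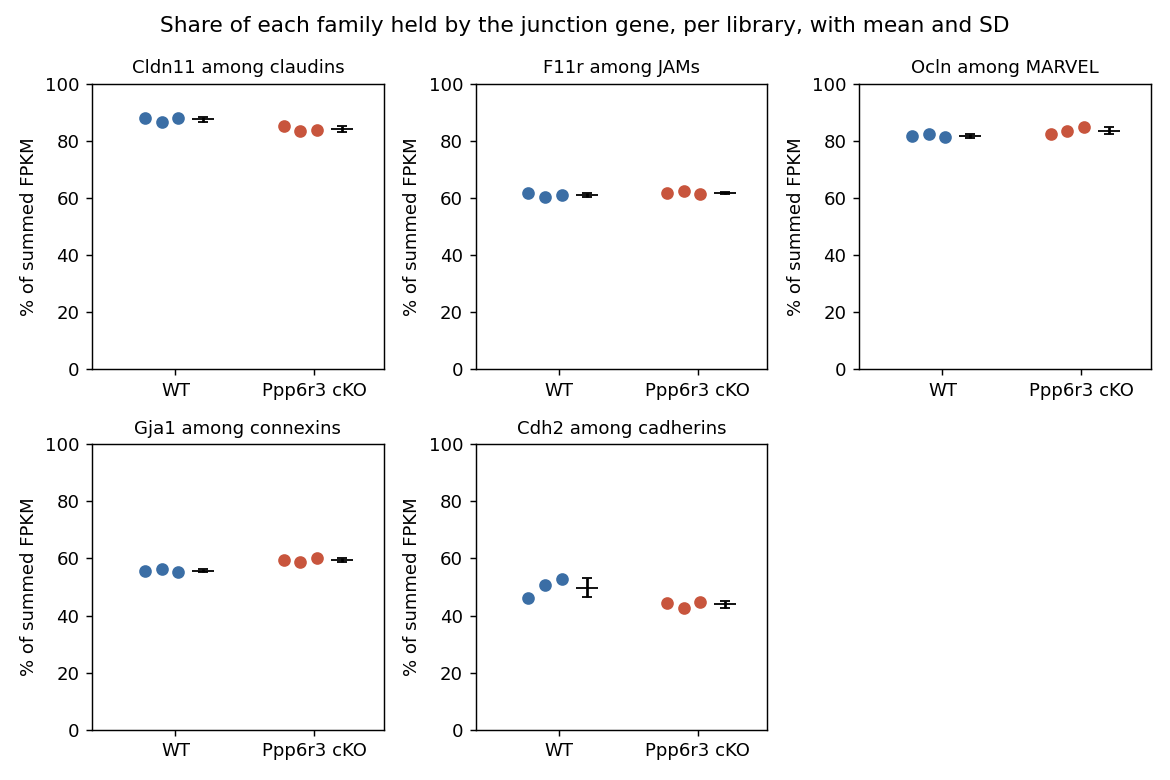
Share of the summed FPKM of its family held by the member named above each panel (vertical axes, percent, 0 to 100) in each library (points), with mean and SD (bars). The shares of Gja1 (higher in Ppp6r3 cKO) and of Cldn11 and Cdh2 (lower) do not overlap between the groups, while the level of Cdh2 itself was 9.735 FPKM in WT and 10.08 FPKM in Ppp6r3 cKO, with overlap.

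The members were also set against the summed FPKM of the 17 Sertoli cell markers in the same library. That sum varied little (3587 to 3659 FPKM in WT, 3512 to 3631 FPKM in Ppp6r3 cKO). The percentages thus largely restate the FPKM values and give no separate support. Gja1 and Ocln, apart in FPKM, stood apart here too, where 36.9% of all genes tested did not overlap in FPKM. Gja1 was at 0.9996%, 1.001% and 0.992% of that sum in WT and 1.151%, 1.09% and 1.205% in Ppp6r3 cKO. Ocln was at 0.5305%, 0.503% and 0.5375% in WT and 0.556%, 0.634% and 0.650% in Ppp6r3 cKO. Both gave p = 0.1 in an exact permutation test (2-sided, the smallest possible, 9 members computed), and the other 7 members overlapped between the groups. The ratio to Sox9 alone, a transcription factor of Sertoli cells, was computed only for Gja1 and Ocln. Both were already apart in FPKM, so this ratio gives no separate support either. Gja1 did not overlap there (90.3% to 95.5% in WT, 98.4% to 110.9% in Ppp6r3 cKO) while Ocln did (48.0% to 50.7% and 47.5% to 62.6%).

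Other junction genes were counted by list. Of adherens junction and ectoplasmic specialization genes, 14 of the 29 that were tested rose and none fell, or 48.3% called where all genes had 15.5%. Their median log2 fold change was 0.16. The rises ran from 0.14 to 0.76. Ctnnb1, which encodes the cadherin-binding protein beta-catenin, went from 137.3 ± 1.30 to 158.6 ± 1.53 FPKM (SD, n = 3 each) and rose by 0.21 (adjusted p = 0.00553). Itgb1, an integrin chain that anchors cells to matrix, rose by 0.19 from 108.8 FPKM, while Ctnna1, which encodes an alpha-catenin, was at 77.0 and 75.95 FPKM and did not pass. Nectin1, an adhesion molecule, rose by 0.48, the actin-bundling gene Fscn1 by 0.41 and the cadherin genes Cdh3 by 0.40 and Cdh4 by 0.76, the last at no more than 0.405 FPKM in any library. The call of Cdh4 was lost without any 1 of the 6 libraries, and that of Cdh3 without WT replicate 2 or 3. The count of adherens genes that rose was 8 without WT replicate 1, 4 without WT replicate 2, 6 without WT replicate 3, 8 without Ppp6r3 cKO replicate 2 and 9 without replicate 3. It was 8 with no filter and 6 with no variance trend. With voom 2 adherens genes fell and 15 rose, with total-fragment scaling 2 fell and 14 rose, and after the GC and length correction 3 fell and 12 rose.

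Several of these adherens genes are also known in fibroblasts and vessels. Summed levels of 8 fibroblast markers were 493.6 to 502.2 FPKM in WT and 590.9 to 615.7 FPKM in Ppp6r3 cKO. Of these 8, 6 rose (75.0% called, against 15.5% of all genes tested). Of 15 endothelial markers 8 rose (53.3% called, median 0.38). Sums over the 15 were 68.7 to 73.1 FPKM in WT and 96.9 to 105.5 FPKM in Ppp6r3 cKO. Col5a1, a fibrillar collagen gene, rose by 0.52 and Tie1, a receptor of vessels, by 0.95; Col1a2 and Vwf, the next by size, rose by 0.41 and 0.87. No listed fibroblast or endothelial marker was at 0 in every library. The part of these cells in the junction values was not tested.

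**Figure D4:**
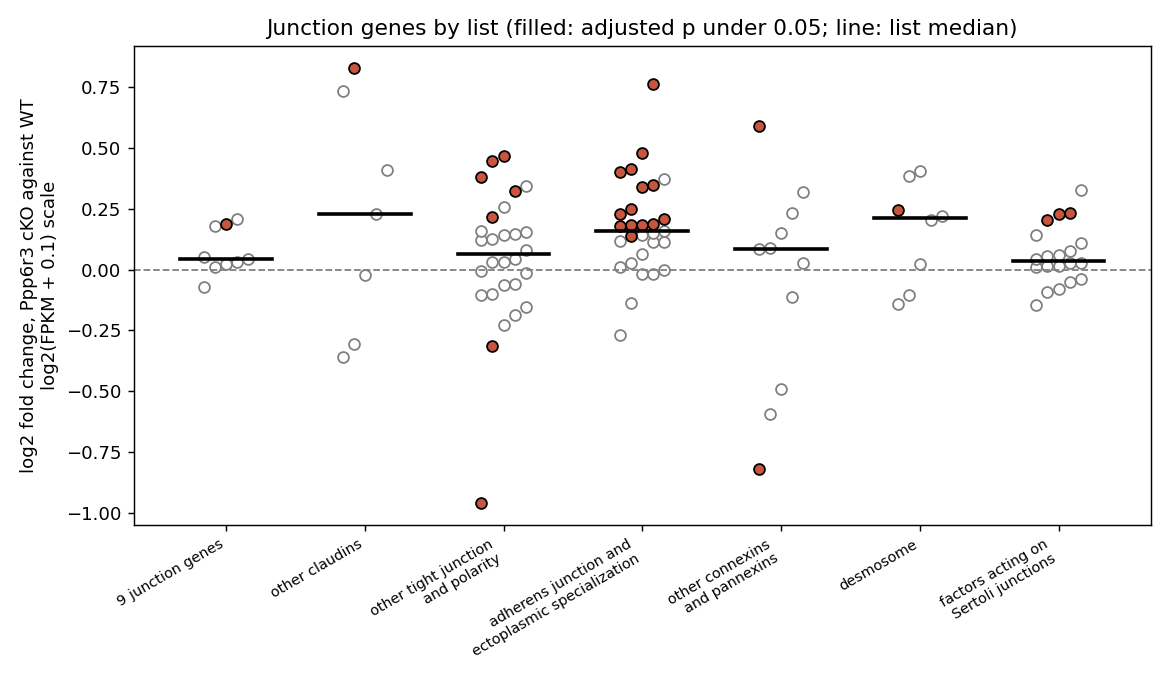
Log2 fold change (vertical axis, log2(FPKM + 0.1) scale) of every tested gene of the 9 members and of 6 further junction lists, with filled points for an adjusted p under 0.05 and lines for list medians. The adherens list holds 14 filled points above 0, and the members lie between -0.07 and 0.21.

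Of 28 other tight junction and polarity genes tested, 5 rose and 2 fell (25.0% called, against 15.5% of all genes tested), and the median log2 fold change was 0.06. Cgnl1, which encodes the cingulin-like scaffold paracingulin, went from 14.8 ± 0.232 to 20.2 ± 0.320 FPKM (SD, n = 3 each) and rose by 0.45 (adjusted p = 0.000627). Esam, an adhesion molecule of endothelial cells, rose by 0.46, and the scaffold Amotl1 by 0.38. Crb3, a polarity gene, fell by 0.96, at 0.732 to 0.924 FPKM in WT and 0.238 to 0.520 FPKM in Ppp6r3 cKO, and its call was lost in 9 of 17 alternatives. The most abundant of this list, Lsr (44.5 and 49.7 FPKM), Cgn (45.8 and 42.6 FPKM) and Jam3, did not pass. Without any 1 of the WT libraries, or with no filter, no gene of this list was called lower.

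Of the 19 other claudins found, 7 were tested and 4 were listed at 0 in every library. Cldn5, which also stands in the endothelial list, rose by 0.83, from 11.5 ± 1.55 to 20.5 ± 1.91 FPKM (SD, n = 3 each; adjusted p = 0.00309). Cldn12 was at 14.8 and 14.6 FPKM and Cldn1 at 4.85 and 5.68 FPKM, and neither passed. Of 11 other connexins and pannexins tested, Gja4, a connexin of vessels, rose by 0.59, from 4.401 to 6.65 FPKM. Gja6 fell by 0.82, from 3.18 to 1.775 FPKM, and was not called without WT replicate 2 or 3. The abundant Gjc1 (13.7 and 12.6 FPKM) and Panx1 (6.22 and 6.92 FPKM) did not pass. Of 8 desmosome genes tested, Pkp4, an armadillo-repeat plaque protein gene, rose by 0.25 from 7.42 to 8.81 FPKM, a call lost without WT replicate 1 or 3 or Ppp6r3 cKO replicate 3. Pkp2 (3.06 and 3.54 FPKM) and Perp (0.897 and 0.845 FPKM) were the next most abundant and did not pass. Shares called were 14.3% of the claudins tested, 18.2% of the connexins and pannexins and 12.5% of the desmosome genes. All are near the 15.5% of all genes tested.

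Of 20 tested factors known to act on Sertoli cell junctions, 3 rose and none fell (median log2 fold change 0.04). That is 15.0% called, near the 15.5% of all genes tested, and none rose with no filter or with no variance trend. Gata4, a transcription factor of somatic cells of the testis, went from 56.4 ± 0.356 to 66.2 ± 4.41 FPKM and rose by 0.23 (SD, n = 3 each; adjusted p = 0.02). Tgfb3, a cytokine known to loosen the barrier, rose by 0.23 from 19.1 to 22.5 FPKM, and Sox8, a Sertoli cell transcription factor, by 0.21 from 27.9 to 32.2 FPKM. None of the 3 was called without WT replicate 1, 2 or 3, nor was Sox8 without Ppp6r3 cKO replicate 3. Cdc42, a small GTPase of actin and polarity (179.7 and 170.3 FPKM), and the ribosomal protein gene Rps6 (508.6 and 513.6 FPKM) were the most abundant and did not pass.

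**Figure D5:**
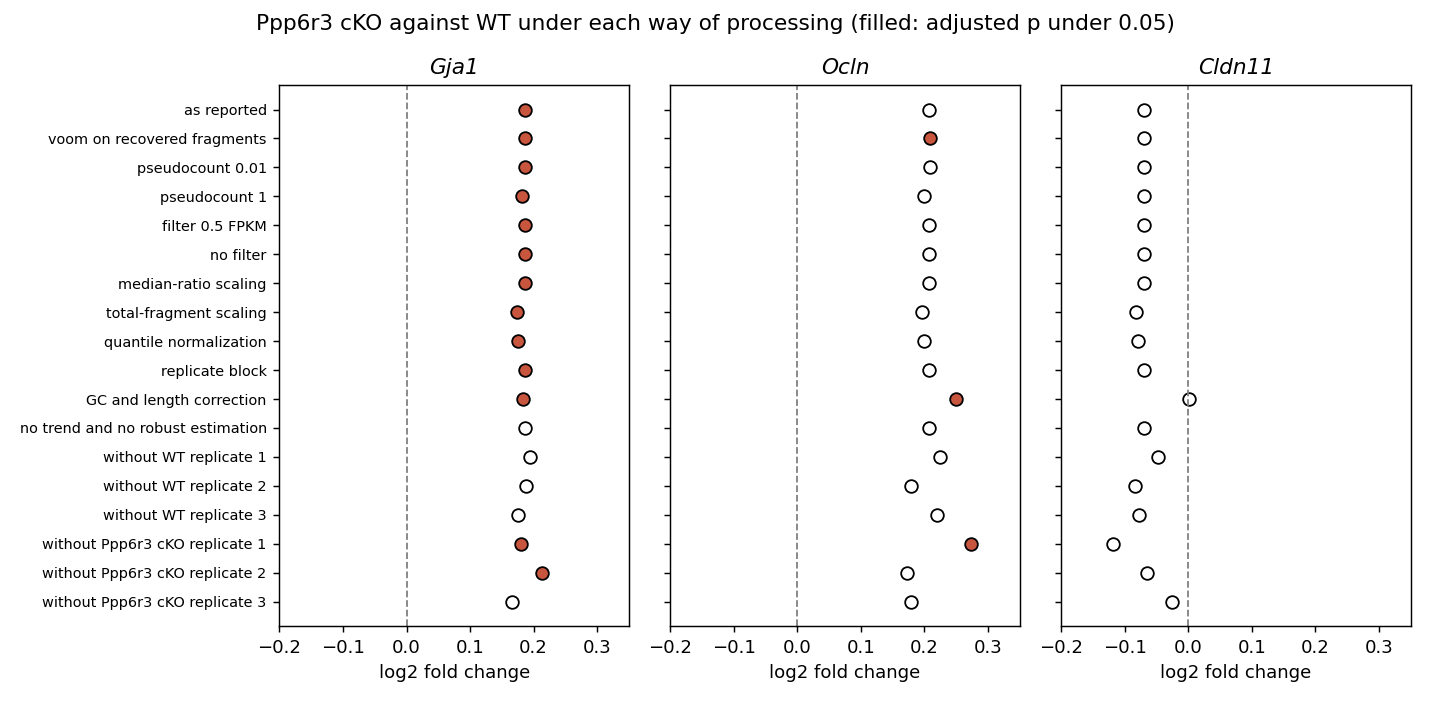
Log2 fold change (horizontal axes) of Gja1, Ocln and Cldn11 as reported and under 17 other ways of processing (rows), filled where the adjusted p is under 0.05. Gja1 stays between 0.17 and 0.21 and Ocln between 0.17 and 0.27, and Cldn11 lies between -0.12 and 0.002.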

How the data were processed

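Poly(A) RNA of 6 samples was sequenced from stranded libraries, per the labels' protocols, and aligned to mm10 with HISAT2 2.0.5, per the series' design text. DESeq2 is named in the submitters' processing notes. Counter, strand setting and annotation: not given in the sources used here. Reads of overlapping genes may thus be shared. Of genes that overlap a member, Gm25908 (rRNA, inside Jam2) reached 6.76 FPKM and the others at most 0.58 FPKM.

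The deposited table, although named as raw counts, holds FPKM by the authors. Multiplied by GENCODE M21 exon length, values were whole multiples of 1 step per library (tolerance 0.01) for 31625 of 32589 genes above 0 (97.0%), and the other 964 were whole with another length. Fragments were recovered from these steps. Each library's step denominator was its median-ratio factor (0.9848 to 1.024 over the 6 libraries) times 1 constant (16217662 to 16217663), so the deposited values were already on a median-ratio scale.

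A limma 3.58.1 fit (R 4.3.3; variance trend, robust, 2-sided) took log2(FPKM + 0.1) of 17672 genes with at least 10 fragments in at least 3 libraries, with Benjamini-Hochberg adjustment and a threshold of 0.05. Fold changes on that scale understate those of low genes. In data simulated for this comparison (17427 genes), 66.7% of 1.5-fold, 80.6% of 2-fold and 96.8% of 4-fold changes were recovered, with 7 false among 161 calls. The simulation gave every gene the same dispersion (0.003) and changed 190 genes, none by less than 1.5-fold. It therefore does not gauge recovery of changes as small as those of the members (Ocln 1.16-fold). Replicates differed by more than counting noise, with chi-square over its degrees of freedom at 2.23 to 4.34.

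Members and lists were chosen with earlier results of these data known. Named from each junction list were up to 4 passing genes of largest change and the 3 most abundant, from each marker list up to 2 passing genes, and the gene with the profile nearest to each member that passed. Sox9 and the other Sertoli cell markers that moved were named after their values were seen. The listed Cldn25 and Igsf5 were not analysed here. Alternatives changed the test (voom), pseudocount (0.01, 1), filter (0.5 FPKM, none), scaling, replicate block, GC and length (splines, 5 degrees of freedom), variance model and libraries; total-fragment scaling was added after seeing the data. Coordinates are those of GENCODE M21 (mm10).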

Additional observations from a re-analysis of the deposited data

How the results depend on the processing

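No alternative called a member lower, and the count of members that rose was 2 with voom on recovered fragments or with the GC and length correction (Ocln beside Gja1), 0 with no trend and no robust estimation, and 0 to 2 without 1 library. Sign changed only for members that did not pass. With total-fragment scaling, chosen after seeing the data, F11r was at -0.001. With the GC and length correction Cldn11 was at 0.002, and without 1 library Cdh2 ran from -0.016 to 0.108, F11r from -0.006 to 0.030, Jam2 from -0.064 to 0.065 and Marveld2 from -0.026 to 0.070. Over all genes, 1352 rose and 1384 fell as reported. With voom 2105 rose and 1965 fell, and with the GC and length correction 1783 rose and 1573 fell. With no filter 740 rose and 768 fell. With no trend and no robust estimation 817 rose and 893 fell. Without 1 library 597 to 1121 rose and 638 to 1277 fell. Fewer libraries were then tested, more genes were tested with no filter, and for the rest the cause was not tested. Replicate numbers did not pair the samples (correlations of same-numbered deviations across genes 0.016, -0.007 and -0.007). With the replicate block Gja1 stayed at 0.186 (adjusted p = 0.0391) and Ocln at 0.208 (adjusted p = 0.0864), and 1092 genes rose and 1100 fell. Median-ratio scaling repeats the authors' own and moved no count. Cldn3 rests on the fewest fragments, 30 to 49 per library.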
